A study of Brassica napus with 27 samples.

Results

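The genes described here are those of the oilseed rape count table whose identifiers begin with BNAA09G, the prefix for chromosome A09. The table held 235 such entries among 119532 genes. A gene was kept when its mean over the 27 libraries reached 0.5 CPM (the count of a gene scaled to the total count of its library), which left 144 genes. The 91 entries below that level were made up of 27 with no count in any library and 64 with few counts. Just inside the minimum stood BNAA09G07830D at 0.522 CPM, BNAA09G41160D at 0.532 and BNAA09G26300D at 0.624. Just outside it stood BNAA09G43580D at 0.488 CPM, BNAA09G20330D at 0.465 and BNAA09G27480D at 0.417.

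Brassica napus is an allotetraploid that arose from a cross of Brassica rapa, the source of its A chromosomes, with Brassica oleracea, the source of its C chromosomes. Most genes therefore have a related copy in the other subgenome. Stretches of related A and C chromosomes can replace one another, and such an exchange changes the expression of many neighbouring genes at once. Identifiers of this kind were numbered along each chromosome, so their order can be used to look for neighbouring genes that shift together.

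RNA was sequenced from leaves of the cultivar Westar, either wild type or CRISPR/Cas9 mutants described as free of the transgene. The bnaa06fah plants (the single line) carry a mutation in BnaA06FAH, and the bnafah plants (the double line) in both BnaA06FAH and BnaC05FAH; FAH is the last enzyme of tyrosine breakdown, and the study asks about programmed cell death in short days. Seedlings spent 5 days on medium and 2 weeks in soil under long days, and leaves were taken at LD (day 0) and after 1 day (SD1) and 2 days (SD2) of short days. That gave 9 groups of 3 libraries. In the labels, long and short days carry the same light period, and a line is named a knock-down in one place and a null mutant in another. They do not say whether replicates were separate plants or how many edited plants founded a line, so a p-value reflects only how far these libraries spread, which may be technical. Counts of the FAH genes themselves are not analysed here and so gave no check of the genotypes.

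Total counts per library ran from 49700646 to 58862542, and the A09 genes took 0.157% to 0.232% of them. Within groups, log2 CPM of all tested genes correlated between replicates at 0.883 to 0.957, with the lowest value in the double line at SD2. In that group replicate 2 stood apart from replicates 1 and 3, and the counts, medians and main genes of that group are also given without it. Among markers fixed for the leaf, the plastid genes rbcL, psbA, psaA and psbB were detected in every library, with a summed level of 5.48 to 20.8 CPM. The 6 flower and pollen entries summed to at most 0.664 CPM, the 2 seed entries were at 0, and the root and epidermis lists had no entry. The oleosin entry LOC106443049 stood in both the pollen and the seed list, and no napin entry was found. In bulk leaf tissue, fewer cells of a type and less RNA per cell cannot be told apart.

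None of the 144 genes carries a name or a product description in the files or in RefSeq's table of genes on the Da-Ae assembly, so they are given by identifier and no function is attached to them. Of these genes, 136 were found in that table, 135 as protein-coding and 1 as a miscellaneous RNA. The table places 126 of them on chromosome A9, 4 on C9, 4 on C8, 1 on C4 and 1 on an unplaced sequence, and 8 were not matched. Along A9, 122 of 125 neighbouring pairs stood in the same order as their identifiers. The widest break fell between BNAA09G51230D, near the end of A9, and BNAA09G52000D, near its start, from where the order began again. No coordinates are given, because the build behind the counts is not given in the sources used here.

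Levels between genes are compared in the authors' FPKM values (fragments scaled to gene length and library size), which correct for gene length. The mean FPKM of the A09 genes over the 27 libraries had a median of 3.26 and ran from 0.253 in BNAA09G18270D to 436 in BNAA09G40450D. The median over all tested genes in the FPKM table was 1.84. Those genes were not held to the 0.5 CPM minimum and ran down to 0.00408 FPKM, so the 2 medians are not of like sets. BNAA09G12300D followed at 118 FPKM, BNAA09G55550D at 73.7, BNAA09G23380D at 67.6 and BNAA09G15320D at 54.3. BNAA09G40450D alone took a visible part of the A09 reads: with it, the A09 share of counts was 0.157% to 0.191% in the double line at SD2 and 0.211% to 0.217% in wild type at SD2. Without BNAA09G40450D the shares were 0.140% to 0.159% and 0.180% to 0.202%, and the groups did not overlap in either case. Part of the remaining gap lies in single abundant genes. Means at SD2 were 28.8 normalised CPM in the double line and 156 in wild type for BNAA09G12300D, and 22.8 and 146 for BNAA09G52000D. Of the 14 A09 genes called between these groups, 12 were lower and 2 higher. The shares were not taken without these genes.

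The genes differed widely in how closely replicates matched. The coefficient of variation between replicates (SD over mean, median of the 9 groups) was lowest in BNAA09G07220D at 8.55%, followed by BNAA09G46370D at 8.65% and BNAA09G34270D at 8.73%. It was highest in BNAA09G47760D at 113%, BNAA09G35810D at 98.8% and BNAA09G43360D at 86.6%. BNAA09G35810D read 0, 36.9 and 11.4 normalised CPM in the 3 wild-type SD1 libraries and 36.6, 3.20 and 32.9 CPM in the 3 double-line LD libraries. The biological coefficient of variation fitted by edgeR had a median of 26.4% over the A09 genes and 31.1% over all tested genes. The tested genes had no 0.5 CPM minimum, so these medians do not compare genes of like level.

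At each stage, edgeR's quasi-likelihood test set the single line against wild type, with p-values adjusted over all 72039 tested genes and a gene called at an adjusted p under 0.05. All 144 A09 genes were tested. At LD 3 of them were called, all lower, where 2.98% of all tested genes were called, 1.06% higher and 1.91% lower. At SD1 4 were called (3.07% of all genes), 1 higher (0.823%) and 3 lower (2.24%). At SD2 3 were called, all lower (2.56% of all genes, 0.683% higher and 1.88% lower). At an unadjusted p under 0.05 there were 17, 18 and 18 A09 genes, beside 14.0%, 11.3% and 10.9% of all genes. The called shares of 2.08% to 2.78% of A09 genes lie near the background at each stage. At LD the 1379 lower calls among all genes include 627 and 77 from 2 stretches of C8 described below, and the background was not taken without them. The libraries of the 2 genotypes did not overlap for 30, 28 and 29 A09 genes at LD, SD1 and SD2, beside 22.0%, 18.8% and 18.6% of all genes.

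BNAA09G40850D was called lower in the single line at all stages. Its level was 6.47, 4.97 and 4.53 normalised CPM in the single line at LD and 10.4, 7.38 and 7.76 CPM in wild type. At SD1 the single line read 4.16, 4.54 and 4.81 CPM and wild type 8.59, 8.81 and 7.60 CPM, and at SD2 they read 6.20, 5.05 and 5.68 against 7.44, 8.12 and 11.3 CPM. The single-line libraries were below all wild-type libraries of the same stage. The log2 fold change was -0.68 ± 0.18 (SE) at LD, -0.89 ± 0.18 at SD1 and -0.66 ± 0.18 at SD2 (edgeR adjusted p = 0.0332, 0.00281 and 0.0413). Over all 9 double-line libraries the gene read between 7.78 and 9.89 CPM, inside or near the wild-type range, and its log2 fold changes lay between -0.03 and 0.09.

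The SD1 call of BNAA09G40850D held under each of the 11 other settings and left-out libraries, with adjusted p up to 0.0267. Its LD call was lost without single-line LD replicate 2 or 3 or wild-type LD replicate 1 and in a fit of the 6 compared libraries (adjusted p up to 0.178). Its SD2 call was lost without any of the 3 single-line SD2 libraries, without wild-type SD2 replicate 3, with no filter on low counts and in the fit of 6 libraries (adjusted p up to 0.361).

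BNAA09G49660D, which Da-Ae places on chromosome C8, was lower in the single line at LD and SD2. The single line read 15.1, 14.7 and 13.5 CPM at LD, 14.0, 18.3 and 14.6 CPM at SD1, and 16.5, 11.8 and 16.7 CPM at SD2. Wild type read 22.1, 28.5 and 22.4 CPM, then 21.6, 20.9 and 27.5 CPM, then 29.3, 24.5 and 27.8 CPM. No single-line library reached a wild-type library of its stage. The log2 fold change was -0.75 ± 0.18 at LD and -0.86 ± 0.18 at SD2 (edgeR adjusted p = 0.0195 and 0.00608), and -0.58 at SD1 did not pass (adjusted p = 0.111). The double line stood between 20.3 and 31.6 CPM over its 9 libraries, with log2 fold changes of -0.04 to 0.11. The SD2 call was lost without single-line SD2 replicate 2 (adjusted p = 0.0778). The LD call was lost without any single-line LD library, without wild-type LD replicate 2 and in the fit of 6 libraries (adjusted p up to 0.131).

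The same pair were the A09 genes called between the lines themselves at LD. That comparison reuses the single-line LD libraries that gave both genes their LD calls against wild type. BNAA09G49660D was higher in the double line by 0.71 on the log2 scale and BNAA09G40850D by 0.67 (edgeR adjusted p = 0.0381 and 0.0479), which makes 2 of 144, where 2.13% of all genes were called, 1.65% higher and 0.486% lower. At an unadjusted p under 0.05 there were 7 (8.21% of all genes). The count was 0 without 1 of 4 libraries (single-line LD replicate 2 or 3, double-line LD replicate 1 or 2), where 5 to 8 genes had an unadjusted p under 0.05 and 1.76% to 1.95% of all genes were called, and DESeq2 called 3 (2.92%). It was 1 without single-line LD replicate 1 (1.76%) or double-line LD replicate 3 (1.92%).

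The third gene called lower in the single line at LD was BNAA09G45310D, at 0.715, 1.23 and 1.12 CPM against 2.60, 2.42 and 2.89 CPM in wild type. The groups did not overlap (log2 fold change -1.37 ± 0.31, edgeR adjusted p = 0.0115). The call was lost without single-line LD replicate 1, without wild-type LD replicate 3 and in the fit of 6 libraries (adjusted p up to 0.0915). The fold change was -0.86 at SD1 and -0.34 at SD2, and neither passed (adjusted p = 0.178 and 0.784). In all, the LD count was 1 without any 1 of the single-line LD libraries (2.00% to 2.55% of all genes), and the SD1 count was 1 without single-line SD1 replicate 1 (2.29%) and 2 without replicate 2 (2.22%). The SD2 count was 0 without single-line SD2 replicate 2, where 14 genes had an unadjusted p under 0.05 (1.98% of all genes were called), and 1 without single-line SD2 replicate 3 (2.09%) or wild-type SD2 replicate 3 (2.03%).

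At SD1 the largest differences belonged to BNAA09G07140D and BNAA09G24140D, and both genes were also low in the double line. BNAA09G07140D read 0.407, 1.00 and 1.5 CPM in the single line, 0.883, 1.60 and 0.277 CPM in the double line and 4.48, 10.2 and 4.97 CPM in wild type at SD1. Both lines lay below wild type, by log2 -2.76 ± 0.64 in the single line and -2.84 ± 0.65 in the double line (edgeR adjusted p = 0.0135 and 0.0431). The 2 comparisons share the wild-type libraries. The single-line call was lost without single-line SD1 replicate 1 or 2 or wild-type SD1 replicate 2 (adjusted p up to 0.101). The double-line call was lost without any 1 library but double-line SD1 replicate 2, and in the fit of 6 libraries (adjusted p up to 0.239).

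BNAA09G24140D read 1.03, 1.26 and 2.54 CPM in the single line at SD1 and 9.76, 12.6 and 9.33 CPM in wild type, without overlap (log2 fold change -2.72 ± 0.63, edgeR adjusted p = 0.0130), and the double line at SD1 read 1.15, 4.35 and 1.35 CPM, which did not pass (log2 -2.21, adjusted p = 0.167). The single-line call was lost without single-line SD1 replicate 1 or 2 (adjusted p up to 0.0975). BNAA09G29800D was the single gene called higher, at 2.04, 0.930 and 2.25 CPM against 0.365, 0.812 and 0.774 CPM at SD1 (log2 1.41 ± 0.35, adjusted p = 0.0207), and BNAA09G23210D was called lower at SD2 (log2 -1.29, adjusted p = 0.0345). Both calls are at levels near 1 CPM and were lost in 4 and 7 of 11 other settings, with adjusted p up to 0.207 and 0.358.

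**Figure D1:**
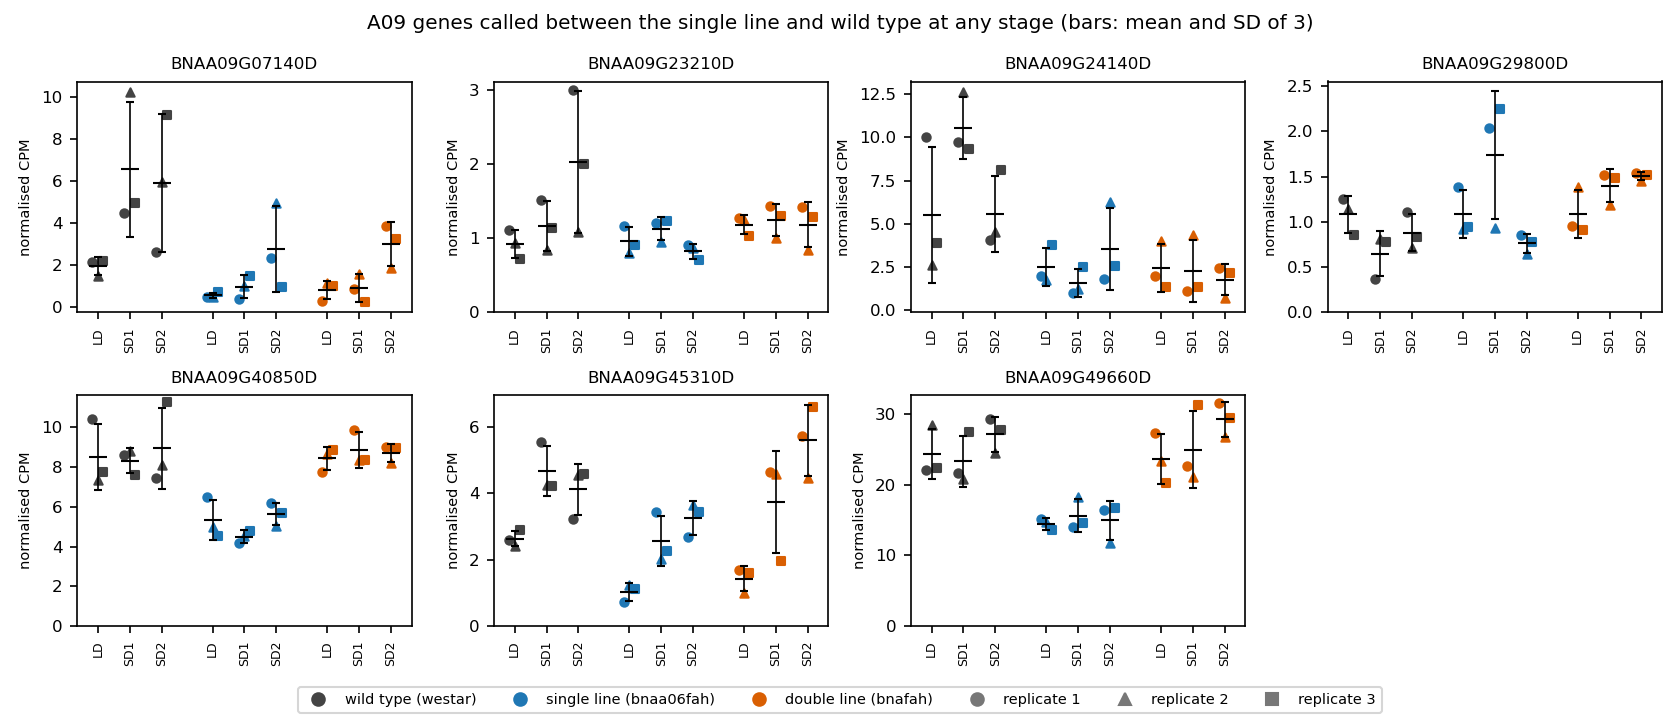
Normalised CPM per library (y axis) of the 7 A09 genes called between the single line and wild type at any stage, by genotype (colour), stage (x axis) and replicate (symbol), with mean and SD of 3 libraries. BNAA09G40850D and BNAA09G49660D are lower in the 9 single-line libraries than in wild-type and double-line libraries of the same stage, and the other 5 were each called at 1 stage.

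The double line differed from wild type in no A09 gene at LD by edgeR's adjusted p, where 0.652% of all genes were called. At an unadjusted p under 0.05, 16 A09 genes passed (11.4% of all genes), and DESeq2 called 0 (1.67% of all genes). At SD1 BNAA09G07140D was the single gene called, lower (0.565% of all genes, 0.353% higher and 0.212% lower), with 5 at an unadjusted p under 0.05 (5.95% of all genes), and DESeq2 called 2 (1.23%). At SD2, 14 A09 genes were called, 2 higher and 12 lower, beside 6.80% of all genes, of which 3.49% were higher and 3.31% lower. The libraries did not overlap for 18 A09 genes at LD and 38 at SD2, where 15.5% and 23.4% of all genes did not. The median log2 fold change at SD2 was -0.11 over the A09 genes and -0.01 over all tested genes. Without replicate 2 of the double line at SD2 the medians were -0.14 and -0.06, and 75 A09 genes did not overlap, beside 49.2% of all genes.

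BNAA09G19970D had the smallest adjusted p of the 14. It read 2.64, 9.29 and 1.77 CPM in the double line at SD2 and 32.5, 26.2 and 41.6 CPM in wild type. The double-line libraries lay far below the wild-type ones, and replicate 2 lay nearest to them (log2 -2.88 ± 0.47, edgeR adjusted p = 0.00113). The single line at SD2 read 24.2, 17.1 and 33.5 CPM. In the double line the gene went from 23.1, 30.3 and 20.8 CPM at LD through 15.4, 17.7 and 8.12 CPM at SD1. Of the 14 calls this one held whichever library of the comparison was left out, and it was lost in the fit of 6 libraries (adjusted p = 0.0968). Without replicate 2 its log2 fold change was -3.92.

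BNAA09G12300D and BNAA09G52000D were among the most abundant A09 genes in wild type at SD2. BNAA09G12300D read 17.3, 50.5 and 18.4 CPM in the double line and 201, 134 and 132 CPM in wild type (log2 fold change -2.44 ± 0.58, edgeR adjusted p = 0.0158). BNAA09G52000D read 15.0, 43.2 and 10.2 CPM against 204, 105 and 129 CPM (log2 -2.68 ± 0.73, adjusted p = 0.0320). Replicate 2 of the double line was the highest of its group in both genes, and no double-line library reached wild type. Without it the log2 fold changes were -3.12 and -3.53. BNAA09G04610D, placed on C9 by Da-Ae, read 7.51, 13.6 and 4.12 CPM against 68.9, 15.0 and 63.2 CPM (log2 -2.54 ± 0.59, adjusted p = 0.0141). There the groups came close, since wild-type replicate 2 was near double-line replicate 2, without which the log2 fold change was -3.08. BNAA09G06020D had the largest fold change, log2 -3.60 ± 1.09, and the widest spread, at 1.16, 0.193 and 1.89 CPM against 13.1, 2.05 and 24.5 CPM (adjusted p = 0.0495). Without double-line replicate 2 it was -3.11 and not called (adjusted p = 0.0844).

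The other 7 lower genes lay between log2 -1.18 and -0.80. BNAA09G34220D read 1.21, 1.39 and 1.37 CPM in the double line and 3.23, 2.70 and 3.07 CPM in wild type (log2 fold change -1.18 ± 0.25, edgeR adjusted p = 0.00671). BNAA09G43370D read 1.57, 3.76 and 1.85 CPM against 5.14, 4.95 and 5.70 CPM (log2 -1.14 ± 0.24, adjusted p = 0.00656). In both genes the groups did not overlap. The rest were BNAA09G39650D at -1.13, BNAA09G44170D at -1.01, BNAA09G29830D at -1.0, BNAA09G12400D at -0.92 and BNAA09G20510D at -0.80, with adjusted p of 0.0240 to 0.0425. Without replicate 2 of the double line all 7 stayed called, between -1.62 and -0.87.

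The 2 genes called higher in the double line at SD2 were moderate in size. BNAA09G31670D read 12.2, 9.08 and 11.7 CPM against 4.34, 6.31 and 3.52 CPM in wild type (log2 fold change 1.22 ± 0.33, edgeR adjusted p = 0.0317). BNAA09G51850D, placed on C9 by Da-Ae, read 22.3, 16.8 and 18.2 CPM against 9.72, 14.2 and 9.32 CPM (log2 0.78 ± 0.20, adjusted p = 0.0235). Neither pair of groups overlapped. Without replicate 2 of the double line the log2 fold changes were 1.34 and 0.87.

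The count of 14 depended on single libraries. Without double-line SD2 replicate 2 it was 33, of which 12 were higher and 21 lower, beside 18.0% of all genes. It was 1 without double-line replicate 1 (1.53% of all genes), 2 without replicate 3 (1.58%), and 4 without wild-type SD2 replicate 1 (1.76%) or replicate 3 (2.08%). In a fit of the 6 compared libraries alone edgeR called 0 (0.415% of all genes), with 33 at an unadjusted p under 0.05, while DESeq2 called 18 (12.4% of all genes). With all libraries in the fit, 38 A09 genes had an unadjusted p under 0.05, beside 24.3% of all genes. The vascular marker list held a sucrose transporter SUT2 and 4 cellulose synthase entries, and its summed level moved with this comparison. At SD2 the sum was 13.9 to 38.2 CPM in the double line. It was 57.4 to 85.5 CPM in wild type and 61.7 to 66.9 CPM in the single line. No entry was at 0 in any library. Over all libraries SUT2 ran from 2.48 to 81.0 CPM and no cellulose synthase entry passed 10.4 CPM, so SUT2 can dominate the sum. Entries were not compared singly, and the part of the list in the A09 differences was not tested.

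**Figure D2:**
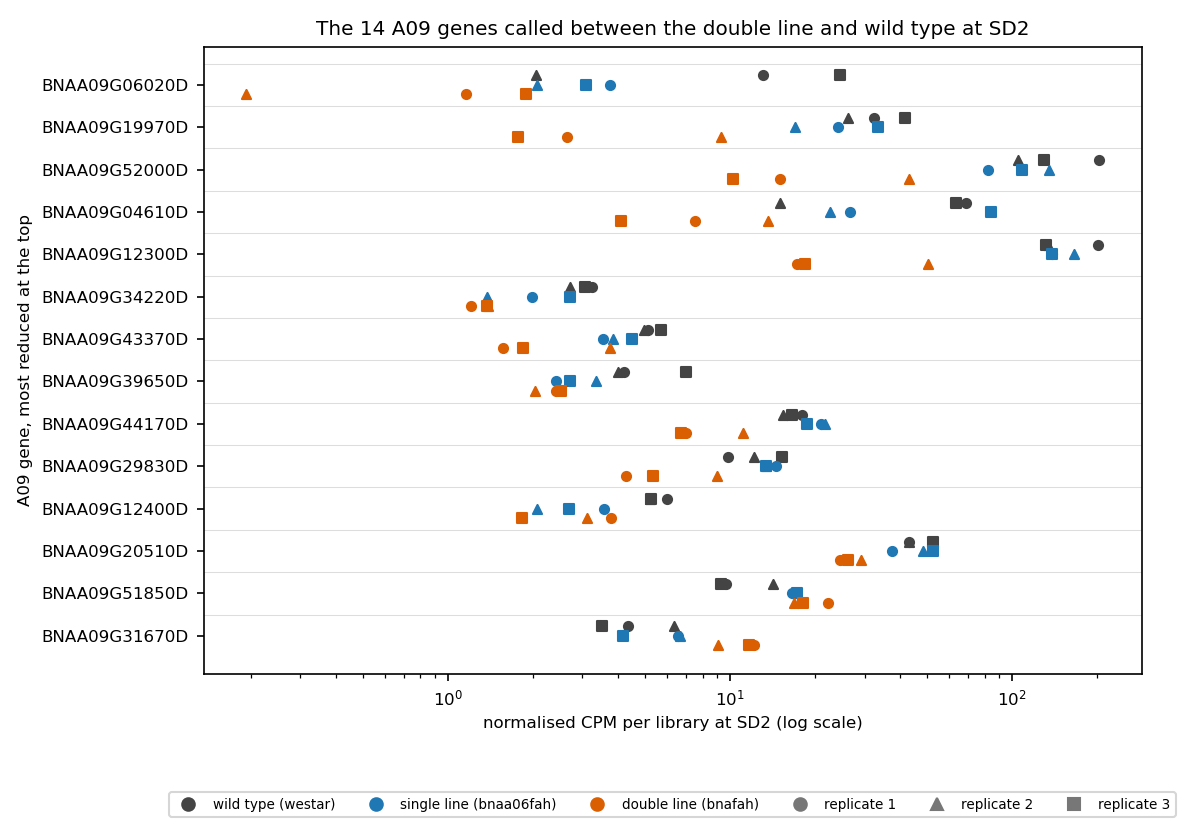
Normalised CPM per library at SD2 (x axis, log scale) of the 14 A09 genes called between the double line and wild type (y axis), with genotypes by colour and replicates by symbol. The double-line libraries lie left of wild type in the upper 12 genes and right of it in the lower 2, and replicate 2 of the double line (triangle) lies nearest to wild type in BNAA09G19970D, BNAA09G12300D and BNAA09G52000D.

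Along the chromosome, the question is whether neighbouring A09 genes shifted together in a line. The running median of log2 fold change over 21 consecutive genes in identifier order, and over as few as 11 at either end, stayed between -0.16 and 0.33 in the single line at LD and between -0.17 and 0.28 in the double line at LD. A run was to be a stretch of at least 11 genes with the running median beyond 0.6, and 0 A09 genes fell in such a run in either line at LD. The same held at SD1 and SD2, where the lowest value was -0.51 at BNAA09G07140D and the highest 0.30 at BNAA09G56820D, the last gene, both in the double line at SD2. Over complete windows of 21 the highest values were 0.22 in the single line and 0.21 in the double line at LD, and 0.19 in the double line at SD2. Without replicate 2 of the double line at SD2 the lowest value was -0.58 and again 0 genes fell in a run. The A09 genes are sparse, since Da-Ae places 126 of them among 3837 tested genes on A9. A window of 21 therefore spans many other genes, and shorter shifted stretches could not have shown as a run. Cut into stretches of 50, 50 and 44 genes, the single line's medians at LD were 0.03, 0.02 and -0.09. Its 3 lower genes all lay in the last stretch by identifier. Of these, Da-Ae places BNAA09G40850D on A9 and BNAA09G49660D on C8, and BNAA09G45310D was not matched. The double line's medians at SD2 were -0.20, -0.09 and -0.01, with 6, 2 and 4 genes called lower.

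The table held 4 pairs of A09 genes 1 step apart in numbering. BNAA09G23370D and BNAA09G23380D stood at mean levels of 3.99 and 59.4 CPM. BNAA09G43360D and BNAA09G43370D stood at 4.71 and 4.46 CPM, and BNAA09G43370D was called in the double line at SD2 while BNAA09G43360D, among the most variable of all, was not.

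**Figure D3:**
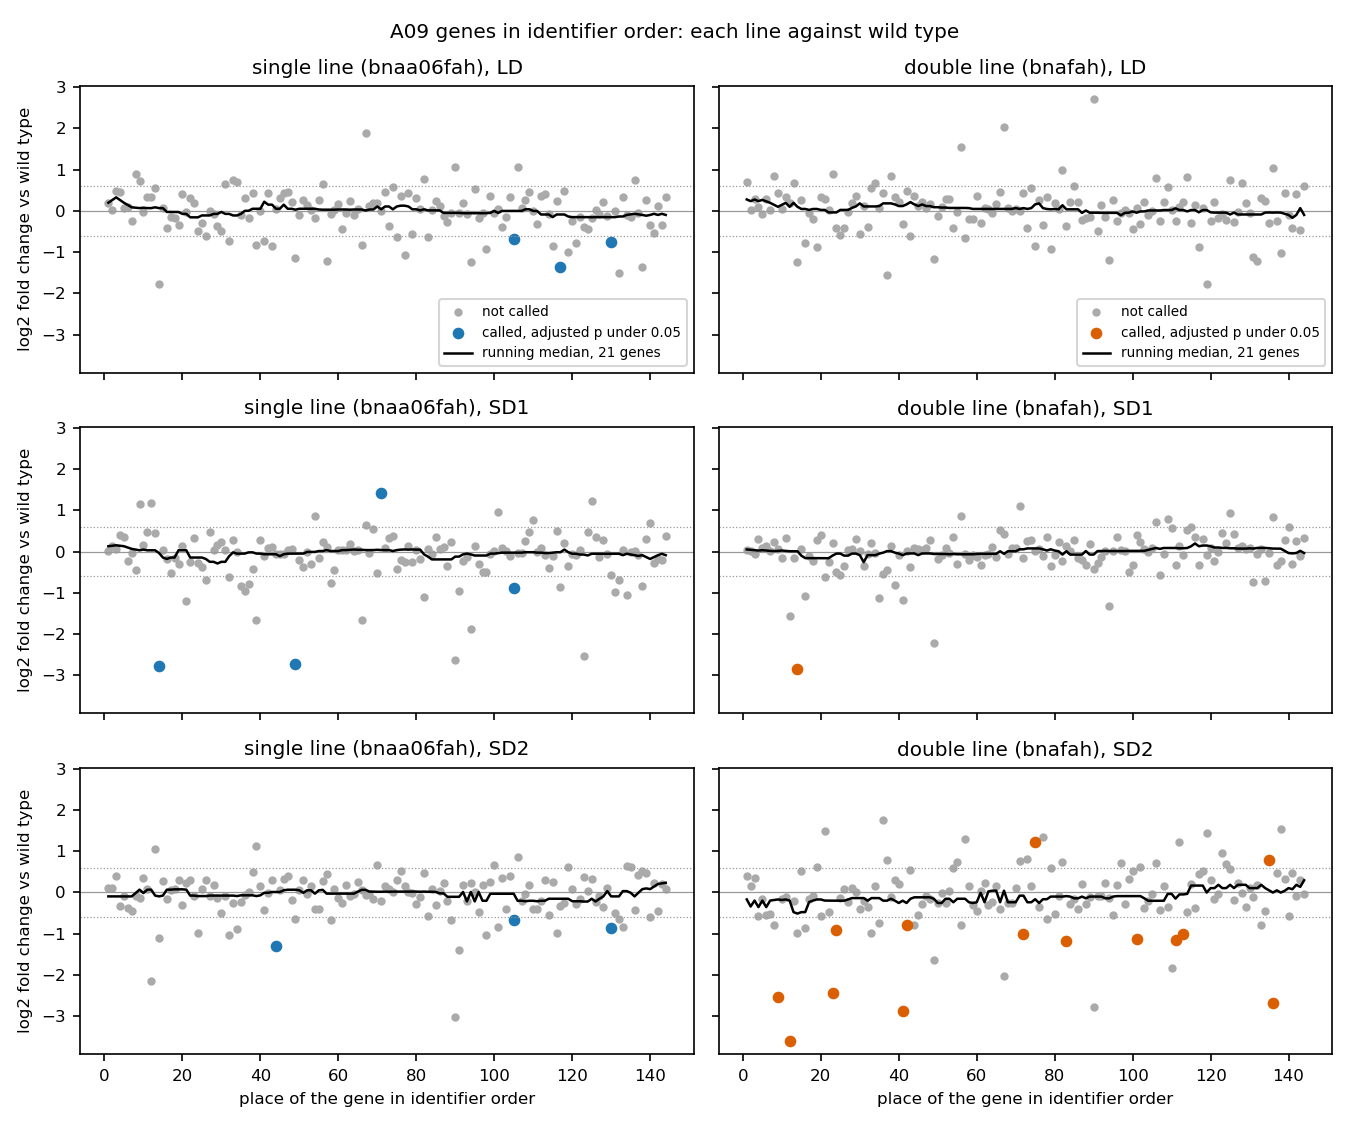
Log2 fold change against wild type (y axis) of the 144 A09 genes in identifier order (x axis) for each line (columns) and stage (rows). Coloured points passed edgeR's adjusted p of 0.05, the black line is the running median of 21 genes (as few as 11 at the ends) and the dotted lines mark 0.6. The running median never leaves the dotted lines, and most called genes are in the double line at SD2. Shifted stretches that hold few of these sparse genes would not show.

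The end of A9 was looked at after these results, with all 3837 tested genes that Da-Ae places on A9. With medians over 41 genes, 2 runs of lower expression in the single line at LD lay among the last 242 genes, of 43 and 37 genes. The double line had 1 such run there at each stage, of 32, 34 and 36 genes at LD, SD1 and SD2, and the single line had 3 runs at SD1 and at SD2. This end held 8 A09 genes: BNAA09G48690D, BNAA09G48780D, BNAA09G49000D, BNAA09G49170D, BNAA09G50100D, BNAA09G50190D, BNAA09G50740D and BNAA09G51230D. At LD only BNAA09G48690D lay inside a run of the single line, and the other 7 lay between the 2 runs. At SD1 and SD2 BNAA09G48690D lay in the first of the 3 runs, at log2 0.36 and -0.22. At SD1 that run began before the last 242 genes and held 2 A09 genes, the other of them outside this end. The second run then held BNAA09G50100D, at -0.98 and -0.51, and BNAA09G50190D, at -0.69 and -0.65. In the single line 0 of the 8 were called at LD, SD1 or SD2, with medians of -0.04, -0.09 and -0.29. Of the 234 other genes there, 60, 55 and 65 were called lower (25.6%, 23.5% and 27.8% of them), with medians of -0.71, -0.62 and -0.68. At LD 33 of the 79 other genes inside the 2 runs and 27 of the 155 outside them were called lower. In the double line 16, 14 and 27 of the 234 were called lower and 0 of the 8 A09 genes were. Its run at LD held 0 A09 genes, and its runs at SD1 and SD2 each held 1, BNAA09G48690D, at log2 0.43 and -0.17. The stretch was chosen on values of the other genes as well as of the 8, and the difference between the 8 and the others was not tested.

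Of the 8, BNAA09G50190D came closest to a call. It read 1.63, 1.13 and 1.25 CPM in the single line at LD and 3.12, 3.77 and 4.55 CPM in wild type, without overlap (log2 -1.51 ± 0.42, edgeR adjusted p = 0.0563). The other 7 lay between -0.14 and 0.33. Of the 45 other genes within 3 places of the 8, 9 were called in the single line at LD, and 2 of the 16 directly beside one. The next named were picked for their size. LOC106411577, 2 places before BNAA09G51230D among tested genes, had a mean of 7.21 CPM in wild type at LD and 0 counts in the 3 single-line LD libraries, and LOC106415971 beside that had 62.2 and 8.03 CPM. BNAA09G51230D itself stood at log2 -0.10 and the gene between, LOC106369300, at 0.02. BNAA09G48690D stood at log2 0.03, with LOC106419880 at 0.42 and LOC106420166 at 0.17 directly beside it. Each 2 places away were LOC106419879, at 1.51 CPM in wild type and 0 counts in the single line, and LOC106420167, at 41.5 and 6.76 CPM. Of the 171 other genes here with at least 1 CPM in wild type at LD, 22 had 0 counts in all 3 single-line LD libraries, and none of the 8 A09 genes did. With only 8 genes, that does not set them apart from the share of the others.

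**Figure D4:**
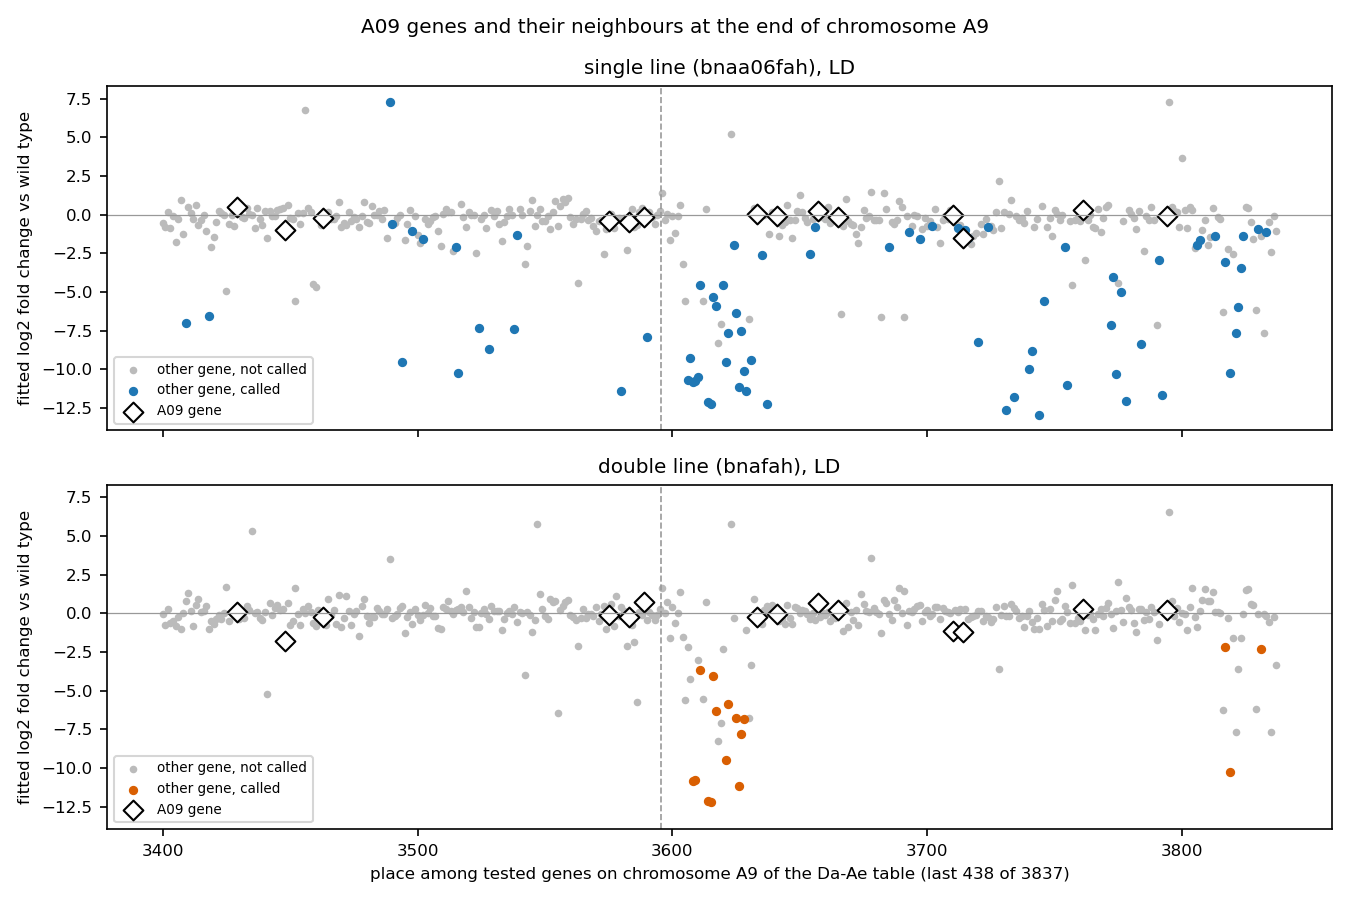
Fitted log2 fold change against wild type at LD (y axis) along the last 438 of 3837 tested genes placed on A9 in the Da-Ae table (x axis, place in order), for the single line above and the double line below, with A09 genes as diamonds. The dashed line opens the last 242 genes, and a fitted value has no fixed size where a gene had 0 counts in a line. Of the 8 diamonds right of it in the single line, 7 lie between -0.14 and 0.33. Some neighbours reach far lower, and 9 of the 45 other genes within 3 places of the 8 were called.

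The 4 A09 genes placed on C8 did not behave alike. BNAA09G40270D lies in Da-Ae inside a run of 832 C8 genes whose median in the single line at LD was log2 -6.42, with 627 called lower. Its own level was 1.84, 1.15 and 2.02 CPM in the single line and 1.73, 2.42 and 1.41 CPM in wild type at LD, which overlap (log2 -0.15). BNAA09G49660D, described above, lies inside a second run of 153 genes with a median of -1.17, of which 77 were called lower. It was itself called lower in the single line at LD, at log2 -0.75. BNAA09G36100D at 0.18 and BNAA09G37840D at -0.18 lie outside the runs. The A09 prefix and the Da-Ae place of these genes differ, and which of them holds in Westar was not tested.

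SD2 was compared with LD within each genotype; LD plants were not sampled again on the later days, so plant age and day length cannot be told apart. After 2 short days wild type had 13 A09 genes called (9 higher, 4 lower, beside 5.87% of all genes, 3.22% higher and 2.65% lower). The single line had 15 (9 higher, 6 lower, beside 9.97% of all genes, 5.06% higher and 4.91% lower) and the double line 22 (9 higher, 13 lower, beside 15.7% of all genes, 8.87% higher and 6.88% lower). After 1 day edgeR called 0 in each genotype, where 0.112%, 0.268% and 0.271% of all genes were called in wild type, single and double line. At an unadjusted p under 0.05 there were 25, 16 and 11, beside 14.9%, 13.6% and 12.7% of all genes, and DESeq2 called 5, 3 and 6, beside 3.27%, 3.00% and 2.42%.

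Over the 3 genotypes 39 A09 genes were called at SD2 against LD in at least 1 (24.6% of all genes), and 2 in all of them (0.775% of all genes). BNAA09G39040D fell, from 41.1, 46.0 and 40.6 CPM at LD to 12.9, 20.5 and 19.3 CPM at SD2 in wild type, without overlap. Its log2 change was -1.28 in wild type, -1.37 in the single line and -0.90 in the double line (edgeR adjusted p = 0.0204, 0.00810 and 0.0420). BNAA09G48200D rose, from 0.781, 0.725 and 0.457 CPM to 3.35, 2.01 and 1.58 CPM in wild type. Its log2 change was 1.82, 2.32 and 1.64 (adjusted p = 0.0374, 0.00866 and 0.0273). The single-line call of BNAA09G39040D held under every setting tried, with adjusted p up to 0.0430, whereas its wild-type and double-line calls were each lost without 4 of 6 single libraries.

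The lines shared 7 of their called genes, 7 of 15 in the single line (46.7%) and 7 of 22 in the double line (31.8%); over all genes the shared calls were 43.0% and 27.2% of the lists. BNAA09G45310D rose by 1.67 in the single line and 1.97 in the double line on the log2 scale (edgeR adjusted p = 0.00397 and 7.06e-04). Its single-line call held under every setting tried, and the double-line call was lost in the fit of 6 libraries alone. BNAA09G46020D rose by 1.99 and 3.59, BNAA09G07140D by 2.28 and 1.85. BNAA09G39650D fell by 1.06 and 1.36, and BNAA09G33770D fell by 0.91 and 0.88. Leaving out 1 library ended the single-line call of BNAA09G46020D in 6 of 6 cases and that of BNAA09G39650D in 5 of 6. Their double-line calls were lost in the fit of 6 libraries alone. Both calls of BNAA09G07140D were lost in 5 of 6 cases, and those of BNAA09G33770D in 4 and 3 of 6. Wild type and the single line shared 4 of 13 (30.8%) and 4 of 15 (26.7%), where all genes gave 39.2% and 23.1%. Among the shared genes BNAA09G12300D rose by 2.04 and 1.78, and BNAA09G18520D rose by 0.93 and 0.99. Without 1 library both calls of BNAA09G12300D were lost in 5 of 6 cases, and those of BNAA09G18520D in 4 and 3 of 6. BNAA09G36090D fell by 2.54 in the single line, from 2.14, 1.02 and 2.08 to 0.218, 0.325 and 0.354 CPM (adjusted p = 0.00632), and this call also held under every setting tried.

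BNAA09G40450D, the most abundant A09 gene, read 445, 463 and 455 CPM at LD in wild type and 139, 304 and 254 CPM at SD2. In the double line it went from 380, 395 and 491 CPM to 138, 321 and 146 CPM, a fall of the double line called at log2 -1.06 ± 0.32 (edgeR adjusted p = 0.0279) and lost without double-line LD replicate 1 or 3 or SD2 replicate 1 or 3. The counts at SD2 against LD moved with single libraries. In wild type the count was 0 without LD replicate 2 or 3 or SD2 replicate 1 (28 to 34 at an unadjusted p under 0.05; 0.0502% to 0.727% of all genes), 1 without SD2 replicate 3 (1.27%) and 21 without LD replicate 1 (8.10%). In the single line it was 5 to 8 without any 1 library (3.05% to 6.26% of all genes). In the double line it was 10 without LD replicate 1 (7.65%), 9 without SD2 replicate 1 (5.79%) or 3 (6.80%) and 40 without SD2 replicate 2, beside 25.9% of all genes.

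Whether a line's difference from wild type itself changed between LD and SD2 was tested as an interaction. In the single line 0 A09 genes were called, as were 0.00% of all genes. There 13 had an unadjusted p under 0.05 (8.59% of all genes), and DESeq2 called 0 (0.207%). In the double line 11 were called, 4 higher and 7 lower, where 6.17% of all genes were, 3.47% higher and 2.71% lower. At an unadjusted p under 0.05 there were 43 A09 genes, beside 23.2% of all genes. The 7 were BNAA09G28290D, BNAA09G52000D, BNAA09G12300D, BNAA09G04610D, BNAA09G19970D, BNAA09G29830D and BNAA09G20510D, and the 4 were BNAA09G46020D, BNAA09G31670D, BNAA09G26530D and BNAA09G51850D. Of these 11, 8 are also among the 14 called at SD2, and both comparisons use the same SD2 libraries.

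Among the lower genes, the fitted changes of BNAA09G12300D and BNAA09G52000D had opposite signs in wild type and the double line. BNAA09G12300D read 73.5, 23.5 and 16.6 CPM at LD in wild type, and 95.1, 83.3 and 34.1 CPM in the double line, before the SD2 values given above. It rose in wild type, while its change in the double line, log2 -1.30, did not pass (edgeR adjusted p = 0.118), which gave an interaction of -3.34 ± 0.80 on the log2 scale (edgeR adjusted p = 0.0249). BNAA09G52000D changed by 2.23 in wild type and -1.50 in the double line on the log2 scale, neither of which passed alone (adjusted p = 0.0658 and 0.153), and its interaction was -3.73 (adjusted p = 0.0339). BNAA09G20510D read 28.7, 27.9 and 21.4 CPM at LD and 43.2, 43.2 and 52.5 CPM at SD2 in wild type, where it was called higher. The double line read 49.8, 32.6 and 27.4 CPM at LD and 24.5, 29.1 and 26.2 CPM at SD2, so its groups overlapped there (interaction -1.29 ± 0.29, adjusted p = 0.0227).

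None of the 11 interaction calls held whichever library was left out. The count was 0 without double-line LD replicate 1, double-line SD2 replicate 1 or 3, wild-type LD replicate 3, or wild-type SD2 replicate 1 or 3 (33 to 38 at an unadjusted p under 0.05; 0.0136% to 0.256% of all genes). It was 28 without double-line SD2 replicate 2 (14.4% of all genes), 20 without wild-type LD replicate 1 (7.14%), 17 without double-line LD replicate 3 (9.28%), 7 without double-line LD replicate 2 (2.57%) and 4 without wild-type LD replicate 2 (2.10%). DESeq2 called 20 (11.3% of all genes), and a fit of the 12 compared libraries called 0 (0.00289%), with 37 at an unadjusted p under 0.05.

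**Figure D5:**
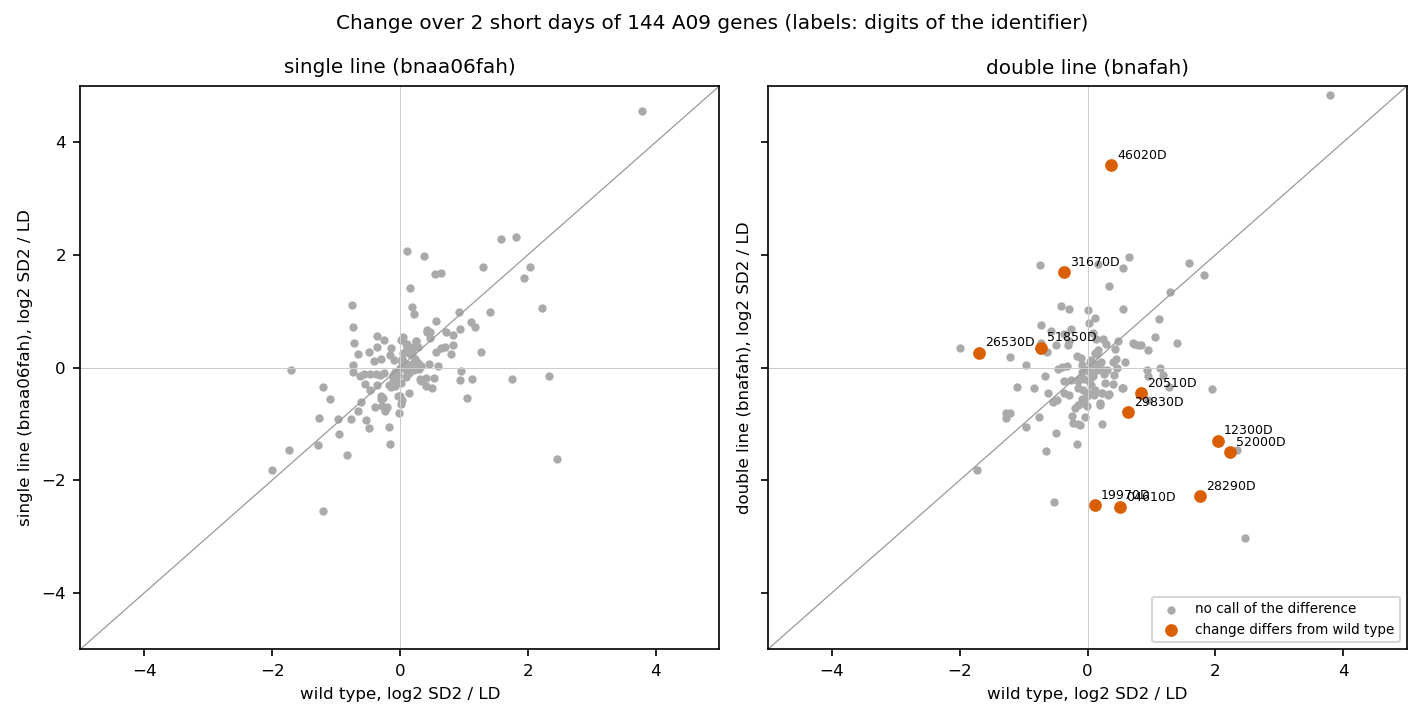
Log2 change from LD to SD2 of the 144 A09 genes in wild type (x axis) and in a line (y axis), single line left and double line right, with the diagonal of equal change. Coloured points are the 11 genes of the double line whose change differed from wild type by edgeR's adjusted p, and the single line has none.

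In all, 123 of the 144 A09 genes were called in none of the 6 comparisons of a line with wild type, and 21 in at least 1 (10.7% of all genes). A gene below the minimum level was called as well: BNAA09G43580D, with log2 -4.15 between SD2 and LD in wild type and an interaction of 5.89 in the double line (edgeR adjusted p = 0.0450 and 0.0367). The signs of all 88 calls over 48 A09 genes were the same in the authors' FPKM values.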

How the data were processed

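Leaves of 3 genotypes at 3 stages gave 9 groups of 3 libraries, with group and replicate number taken from the labels. Per the labels' protocols, TRIzol RNA went into TruSeq v2 libraries read on a HiSeq. Trim Galore and HISAT2 are the tools named for trimming and alignment, per the submitters' processing notes. Their versions, the genome build, the annotation and the counting tool were not given in the sources used here. Gene counts were made by the authors and used as deposited, unscaled. The FPKM values were the authors' own too, made in a way not stated here, and served for levels between genes and as a check of signs with a pseudocount of 0.1. A library's depth of 49700646 to 58862542 counts left replicate differences well above counting noise (chi-square per gene 19.7 to 167), so depth limits mainly genes near 1 CPM.

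The count table held 119533 entries. The 1 that names no gene (1.09e-05% of counts) was left out, and 0 columns belonged to other samples. In R 4.3.3 with edgeR 4.0.16, genes were filtered by group, scaled by TMM (factors 0.862 to 1.14) and fitted by robust quasi-likelihood as 9 group means over 27 libraries, with 18 residual degrees of freedom. P-values were adjusted by Benjamini-Hochberg over 72039 genes, at a threshold of 0.05. Normalised CPM values use TMM-scaled library sizes, and all adjusted p-values are edgeR's unless DESeq2 1.42.0 is named. The standard errors of fold changes were not fitted directly. They were worked back from the quasi-likelihood test, as the absolute log2 fold change over the square root of its F statistic. Running medians used 21 genes in identifier order.

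Named genes were to be, per line, up to 5 in each direction of largest LD change called at LD, SD1 and SD2 with at least 5 CPM and no overlap, the members of product lists, the edges of runs, and 3 interaction genes per direction. The product lists held 0 A09 genes, as none has a product name. Only BNAA09G40850D and 6 interaction genes met the rule, so the other genes named were chosen after their values were seen. The genes and lists were chosen with earlier results of these data known. The SD2 against LD contrasts, the whole-A9 order and the summaries without double-line SD2 replicate 2 were added after the data were seen. Alternatives were RLE scaling, no filter, DESeq2, a replicate block, only the compared libraries, a 1 CPM minimum, other windows and each library left out.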

Additional observations from a re-analysis of the deposited data

Results flagged for a closer look

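Each of the 6 genes here had a difference between double line and wild type that changed between LD and SD2 by edgeR's interaction test. BNAA09G31670D had an interaction of 2.06 on the log2 scale (adjusted p = 0.0229), with 6.12, 6.65 and 5.50 CPM at LD and 4.34, 6.31 and 3.52 CPM at SD2 in wild type, and 3.00, 2.5 and 4.68 CPM, then 12.2, 9.08 and 11.7 CPM, in the double line. BNAA09G51850D had 1.09 (adjusted p = 0.0307), as wild type went from 16.7, 18.5 and 20.0 to 9.72, 14.2 and 9.32 CPM and the double line from 12.2, 14.6 and 17.9 to 22.3, 16.8 and 18.2 CPM. BNAA09G46020D had 3.22 (adjusted p = 0.0322), as the double line went from 0.142, 0.574 and 0.476 to 6.39, 1.70 and 6.39 CPM while wild type read 0.890, 1.74 and 1.5, then 1.76, 2.74 and 0.854 CPM.

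BNAA09G28290D had -4.04 (edgeR adjusted p = 0.0252), with 0.363, 3.75 and 1.24 CPM at LD and 6.10, 4.73 and 7.16 CPM at SD2 in wild type, against 11.9, 6.69 and 3.17 CPM, then 0.824, 3.16 and 0.489 CPM, in the double line. BNAA09G12300D had -3.34 (adjusted p = 0.0249) and BNAA09G20510D -1.29 (adjusted p = 0.0227), with the values given earlier. All 6 calls were lost when any 1 of these libraries was left out: double-line LD replicate 1, double-line SD2 replicates 1 and 3, wild-type LD replicate 3, and wild-type SD2 replicates 1 and 3.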

How the results depend on the processing

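No call of a named gene changed sign under any alternative. Scaling by RLE left 1 gene called between the lines at LD (2.13% of all genes). With no filter on low counts, 1 was called in the single line at SD2 (1.91%) and 0 between the lines at LD (1.64%; 6 at an unadjusted p under 0.05; DESeq2 called 3). DESeq2 called 2 in the double line at SD1 (1.23% of all genes), 23 in wild type at SD2 against LD (12.1%) and 20 in the double-line interaction (11.3%). With only the compared libraries in the fit, edgeR called 1 in the single line at SD2 (2.81%), 7 in wild type at SD2 against LD (4.70%), and 0 in the double line at SD1 (7 unadjusted; DESeq2 2), the double line at SD2 (33; 18), its interaction (37; 20), its SD2 against LD (27; 28) and between the lines at LD (7; 3), beside 0.324%, 0.415%, 0.00289%, 0.00% and 1.84% of all genes. These fits hold fewer samples. The 28 that DESeq2 called at SD2 against LD in the double line stand beside 20.9% of all genes. Taken among A09 genes alone, other windows, thresholds, run lengths, scaling, FPKM and Da-Ae order gave 0 in runs at LD. Among all genes of A9 and C8, BNAA09G48690D, BNAA09G40270D and BNAA09G49660D lay inside single-line runs at LD.

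Replicate numbers did not pair the libraries: same-numbered deviations correlated between -0.17 and 0.16. With a replicate block edgeR called 3, 4 and 3 in the single line and 0, 1 and 13 in the double line at LD, SD1 and SD2 (2.81%, 2.85%, 2.45%, 0.569%, 0.523% and 5.66% of all genes), 0 and 9 in the interactions (0.00% and 4.87%), 14, 12 and 23 at SD2 against LD in wild type, single and double line (5.05%, 9.45% and 14.7%), and 0 between the lines at LD (2.05%; 8 unadjusted).

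Leaving out 1 library gave 1 to 3, 1 to 4 and 0 to 4 calls in the single line at LD, SD1 and SD2. Of all genes, 2.00% to 2.84%, 2.22% to 2.64% and 1.96% to 2.58% were called there. The double line had 0 to 1, 0 to 2 and 1 to 33. Its shares of all genes were 0.395% to 0.796%, 0.361% to 0.545% and 1.53% to 18.0%. Interaction counts were 0 to 0 (0.00% to 0.00542% of all genes) and 0 to 28 (0.0136% to 14.4%). The lines at LD differed in 0 to 1 (1.76% to 1.95%). SD2 against LD gave 0 to 21 in wild type (0.0502% to 8.10%). It gave 5 to 8 in the single line (3.05% to 6.26%) and 9 to 40 in the double line (5.79% to 25.9%). A09 genes in runs stayed at 0 to 0. The double-line counts at SD1 were 0 without 5 of the 6 libraries (5 to 7 unadjusted). The comparison of A09 genes with their counterparts on C chromosomes was not run, since no protein table was at hand. Counts under about 1 CPM limit the genes near the minimum.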
